A study of Mus musculus with 4 samples.

Results

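Endothelial cells of the liver release ligands that act on neighbouring cells, and 9 such genes are described here: *Wnt2*, *Wnt9b*, *Rspo3*, *Bmp2*, *Bmp6*, *Hgf*, *Dll4*, *Dll1* and *Jag1*. They were picked by symbol from the 33696 genes of the count matrix, and all 9 were found. Their counts were read in endothelial cells, which were cells with at least 2 *Stab2* counts, at least 1 *Kdr* count and 0 *Ptprc* counts, and then in Kupffer and T cells as contrast.

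Wnt2 and Wnt9b, made by endothelial cells around the central vein, and the R-spondin Rspo3, which potentiates Wnt signalling, maintain the β-catenin program of pericentral hepatocytes in the mouse liver. Endothelial Bmp6 and Bmp2 act on hepatocytes to induce hepcidin and so control iron. Hgf is the ligand of the receptor Met on hepatocytes, and Dll4, Dll1 and Jag1 are membrane-bound ligands of Notch receptors. Sinusoidal endothelium differs along the path of blood from the portal to the central vein, with *Kit* and *Wnt2* known as pericentral genes and *Ltbp4* and *Msr1* as periportal genes.

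The livers were from mice 2 months old that carried the alleles *Stab2-CrexERT2* and *R26-LSL-tdT* (labelled S2 in both sorts), and tamoxifen had been given on embryonic day 9.5, so that cells in which the *Stab2* promoter then drove Cre, and the descendants of these cells, carry tdTomato. CD45+ cells were sorted into a tdTomato+ and a control sample, and each sort gave 1 droplet library of 5′ gene expression. The control label names CD45+ liver cells alone, while the series text describes these cells as tdTomato-. The sorts also carry different batch labels, 1 for tdTomato+ and 2 for control, so sort and batch cannot be told apart, and the number of animals in each library was not given in the sources used here. With 1 library per sort there is no replicate error and no test, and the 95% intervals below are exact and cover counting error only.

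The tdTomato+ library held 203366009 UMIs (unique molecular identifiers, counts of single captured RNA molecules) in 17957 barcodes, and the control library held 156771260 in 18444 barcodes. After removal of cells with under 300 genes or over 10% mitochondrial counts, 17509 and 18173 cells were left. They shared 84 barcodes. Although the labels describe CD45+ immune cells, 5851 of the kept tdTomato+ cells (33.4%) met the endothelial gate, against 9 control cells. All 12 sinusoidal endothelial tracer genes exceeded 10 CPM (UMIs of a gene scaled by all UMIs of the class to 1000000) in them, whereas only 1 of 10 T cell markers (*Lck*, 18.9 CPM), 4 of 10 Kupffer markers and 0 of 5 B cell markers did. Droplets with both endothelial and T cell genes were kept apart (3358 tdTomato+ cells). No doublet caller was run.

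Stretches upstream of the start sites are shown for 3 ligand genes that differed by zone in these cells, *Wnt2* and *Wnt9b* toward the central vein and *Dll4* toward the portal side. The sequences are from RefSeq (GRCm38.p6), read on the gene's strand. *Wnt9b* and *Dll4* are given for 250 bases before the start at chr11:103749822-103750071 (minus strand) and chr2:119325534-119325783 (plus strand). *Wnt2* is given for 110 bases at chr6:18030586-18030695 (minus strand), because the other 140 bases of its window lie inside the GENCODE gene. Capitals mark GGCGCC.
Wnt2: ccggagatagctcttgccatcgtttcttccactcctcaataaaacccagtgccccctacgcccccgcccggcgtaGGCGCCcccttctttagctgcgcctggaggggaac
Wnt9b: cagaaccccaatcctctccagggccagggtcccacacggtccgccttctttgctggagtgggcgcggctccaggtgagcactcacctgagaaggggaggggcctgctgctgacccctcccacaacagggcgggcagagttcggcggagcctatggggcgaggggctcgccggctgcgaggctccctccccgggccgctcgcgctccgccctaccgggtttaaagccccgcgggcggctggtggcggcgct
Dll4: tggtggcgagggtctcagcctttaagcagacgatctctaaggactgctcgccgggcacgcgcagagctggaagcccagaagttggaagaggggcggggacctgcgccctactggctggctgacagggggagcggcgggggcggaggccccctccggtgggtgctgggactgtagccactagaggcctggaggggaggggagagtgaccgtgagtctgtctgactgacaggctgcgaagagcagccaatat

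Of the 9 genes, 7 had an entry in the RefSeq promoter table. *Rspo3* and *Bmp2* are named only. Windows of 250 bases were searched on both strands for short motifs. For RBPJ, the factor through which Notch receptors act, the letters were GTGGGAA. For the TCF and LEF factors, through which Wnt ligands act, they were CTTTGA. The GATA factors, which act in sinusoidal endothelium, were searched as AGATAA and, counted together with it, as TGATAA. For SMAD factors, which carry the BMP signal, the letters were GGCGCC. The TATA box, at which transcription of some genes starts, was searched as TATAAA and, in the same count, as TATATA. The *Wnt2* window held 1 SMAD match, shown in capitals above, and 1 GATA match in the part not printed, and 1 of 2 *Dll1* windows held 1 SMAD match. No other match was found in the windows of these genes. That *Dll1* window, the only *Bmp6* window and 1 of 2 *Hgf* windows lie wholly inside the GENCODE gene, as do 124 bases of the *Jag1* window. Among all 32851 windows of the table, 5.42% held the RBPJ letters, 13.8% the TCF/LEF letters, 16.6% a GATA match, 9.59% the SMAD letters and 15.6% a TATA match. A match describes letters and does not show binding.

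All 9 ligand genes were read in endothelial cells of the tdTomato+ library, whose 5851 cells held a median of 7512 UMIs. The Wnt ligand *Wnt2* (ENSMUSG00000010797, chromosome 6, 17988940 to 18030585, minus strand) had 20355 counts or 440 CPM (95% interval 434 to 446). *Wnt9b* (ENSMUSG00000018486, chromosome 11, 103727364 to 103749821, minus strand) had 29.5 CPM (27.9 to 31.1). *Rspo3* (ENSMUSG00000019880, chromosome 10, 29452416 to 29535867, minus strand) had 341 CPM (336 to 346). These 3 genes make the Wnt branch of the group, and each was spread over the cells in its own way.

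*Bmp2* (ENSMUSG00000027358, chromosome 2, 133552159 to 133562885, plus strand) reached 1226 CPM (1216 to 1237). *Bmp6* (ENSMUSG00000039004, chromosome 13, 38345107 to 38500302, plus strand) had 228 CPM (224 to 232). *Hgf* (ENSMUSG00000028864, chromosome 5, 16553495 to 16620152, plus strand) stood at 218 CPM (214 to 223). These are the secreted factors read by BMP receptors and by Met.

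Among the Notch ligands, *Dll4* (ENSMUSG00000027314, chromosome 2, 119325784 to 119335962, plus strand) had 127 CPM (124 to 131). *Dll1* (ENSMUSG00000014773, chromosome 17, 15367354 to 15376872, minus strand) had 23.4 CPM (22 to 24.8), and *Jag1* (ENSMUSG00000027276, chromosome 2, 137081456 to 137116644, minus strand) had 16.7 CPM (15.5 to 17.9). The positions are those of protein-coding genes in GENCODE M21 on GRCm38. CPM of 5′ counts are not scaled by gene length, so the levels of different genes are not ranked.

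The spread over cells differed between these genes. *Bmp2* had a median of 8 counts per cell, and 96.0% of endothelial cells had at least 1. *Rspo3* was at 0 in 81.5% of the cells, yet 423 cells held at least 10 counts, up to 144, and the 10% of cells with the most counts carried 94.0% of them. *Wnt2*, with a median of 2 counts, was at 0 in 34.2% of cells. *Dll1* never exceeded 5 counts in a cell.

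To compare cells at 1 depth, each was thinned at random to 3000 UMIs, which left out 441 endothelial, 34 Kupffer and 48 T cells and kept 5410, 89 and 2030. The median depth before thinning was 7512 UMIs in endothelial, 5907 in Kupffer and 8197 in T cells. *Bmp2* was then found in 91.1% of endothelial cells, against 2.25% of Kupffer and 0.985% of T cells (96.0% of endothelial cells without thinning). *Wnt2* was found in 53.6% of endothelial cells, against 2.25% and 0.394% (65.8% without thinning). *Rspo3* was found in 15.4% of endothelial cells, in 0 of 89 Kupffer cells, which allows a share of up to 3.37% (3 of 89), and in 0.296% of T cells (18.5% of endothelial cells without thinning).

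After the same thinning, *Bmp6* was found in 42.5%, *Hgf* in 38.5% and *Dll4* in 28.4% of endothelial cells. The scarcer *Dll1*, *Wnt9b* and *Jag1* were found in 6.47%, 6.03% and 3.77%. In T cells the shares of these 6 genes ran up to 0.542%, for *Jag1*, and *Wnt9b* was found in 0 of 2030, which allows up to 0.148%. In Kupffer cells *Hgf* was found in 4.49% and the other 5 in 0 of 89.

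The 9 control cells that met the endothelial gate gave another reading, too small to set the libraries against each other. They held 85 *Bmp2* counts (1257 CPM, interval 1004 to 1554), 26 *Wnt2* (384 CPM, 251 to 563), 20 *Rspo3* (296 CPM, 181 to 457) and 15 *Bmp6* counts (222 CPM, 124 to 366). *Dll4* had 15 counts (222 CPM, 124 to 366), *Dll1* 3 (44.4 CPM, 9.15 to 130) and *Wnt9b* 2 (29.6 CPM, 3.58 to 107). The intervals of these 7 genes held the tdTomato+ endothelial levels. Those of *Hgf* and *Jag1* did not. *Hgf* had 5 counts (73.9 CPM, 24.0 to 172, against 218 CPM in tdTomato+ endothelial cells). *Jag1* had 6 (88.7 CPM, 32.6 to 193, against 16.7 CPM). The intervals leave out the spread between cells, so they do not set the libraries apart. Zone genes differed as well. *Kit* had 163 against 326 CPM in tdTomato+ endothelial cells, *Msr1* 562 against 408 CPM and *Ltbp4* 251 against 329 CPM. Whether the make-up of the 9 cells bears on *Hgf* and *Jag1* was not tested.

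Zonation was read within the tdTomato+ endothelial cells. A cell with more *Kit* plus *Wnt2* than *Ltbp4* plus *Msr1* counts was called pericentral-type (2839 cells, 48.5%, median 8062 UMIs), and one with fewer was called periportal-type (2748 cells, 47.0%, median 7191 UMIs). The classes are ranges of a count difference and not types: 264 cells had equal counts and 470 lay 1 count from the limit. Genes that the division did not use followed it. Their lists were chosen with earlier results of these data known, so this describes the classes and is no independent check. The pericentral genes *Thbd*, *Cdh13*, *Fabp4* and *Ptgs1* were higher in pericentral-type cells (log2 ratio 1.35 to 3.46), and the periportal genes *Efnb2*, *Ntn4*, *Adam23* and *Efna1* were lower (log2 ratio -2.21 to -1.15). *Wnt2* chose the cells, so its own ratio was taken with *Kit* alone against *Ltbp4* plus *Msr1*, which gave 2070 pericentral-type and 3280 periportal-type cells.

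The Wnt ligands and *Rspo3* lay on the pericentral side. *Wnt9b* had 55.6 CPM (1329 counts) in pericentral-type cells, against 1.38 CPM (29 counts) in periportal-type cells, a log2 ratio of 5.33 (interval 4.80 to 5.91). *Rspo3* had 620 CPM in pericentral-type and 43.4 CPM in periportal-type cells (log2 ratio 3.84, 3.74 to 3.94). By *Kit* alone, *Wnt2* had 790 CPM in pericentral-type and 186 CPM in periportal-type cells (log2 ratio 2.08, 2.04 to 2.13). All 3 were past 2-fold. After thinning, *Wnt9b* was found in 12% of pericentral-type and 0.273% of periportal-type cells, and *Rspo3* in 29.6% and 1.48% of the same classes.

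*Dll4* and *Jag1* lay on the other side. *Dll4*, the main endothelial Notch ligand, had 57.9 CPM in pericentral-type and 206 CPM in periportal-type cells, 3.56-fold lower in pericentral-type cells (log2 ratio -1.83, -1.92 to -1.74). *Jag1* had 10.3 CPM in pericentral-type and 24.8 CPM in periportal-type cells (log2 ratio -1.27, -1.50 to -1.05). With *Kit* alone its ratio shrank to -0.85 (11.7 and 21.1 CPM), under 2-fold. *Dll1*, in contrast, had 29.6 CPM in pericentral-type and 16.9 CPM in periportal-type cells, a log2 ratio of 0.81 (0.63 to 1.00) that stayed short of 2-fold.

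The BMP ligands and *Hgf* differed less between the zones. *Bmp2* had 1323 CPM in pericentral-type and 1110 CPM in periportal-type cells (log2 ratio 0.25, 0.23 to 0.28). *Bmp6* had 204 and 253 CPM in the same order (log2 ratio -0.31, -0.36 to -0.25). *Hgf* had 169 CPM in pericentral-type and 272 CPM in periportal-type cells (log2 ratio -0.69, -0.75 to -0.63).

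Of the 8 genes that the division did not use, 2 were therefore at least 2-fold higher in pericentral-type cells, 2 at least 2-fold lower and 4 within 2-fold. Of all 9360 genes with at least 10 CPM in 1 class, 1.41% were at least 2-fold higher and 1.38% at least 2-fold lower, and the median log2 ratio of all was 0.02. By *Kit* alone, where *Wnt2* counts too, 3 of the 9 were higher and 1 lower, against 1.4% higher and 1.82% lower of 9353 genes. Cell depth moved with the zones. In cells of 5000 to 10000 UMIs, with medians of 7678 and 7323 UMIs in the pericentral-type and periportal-type classes, the log2 ratio was 6.21 for *Wnt9b*, 5.92 for *Rspo3*, -1.91 for *Dll4* and -1.77 for *Jag1*. In that range *Wnt2*, by *Kit* alone, stood at 2.21.

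**Figure D1:**
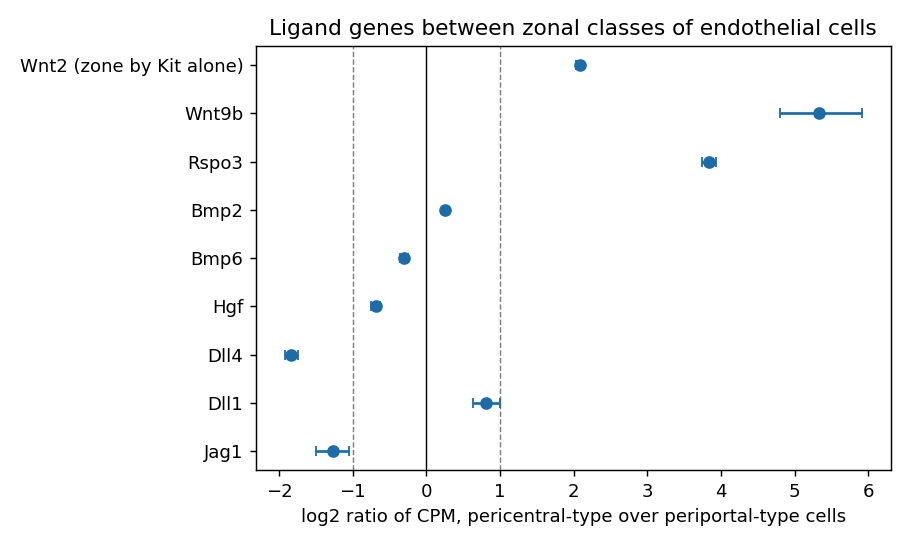
Log2 ratio of CPM in pericentral-type over periportal-type endothelial cells of the tdTomato+ library for the 9 ligand genes, with *Wnt2* read by *Kit* alone. Points are ratios of summed counts, bars are exact 95% counting intervals and dashed lines mark 2-fold. *Wnt9b* (5.33), *Rspo3* (3.84) and *Wnt2* (2.08) lie right of the upper line, and *Dll4* (-1.83) and *Jag1* (-1.27) lie left of the lower one.

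The change along the zones was followed in 7 bins of *Kit* counts minus the sum of *Ltbp4* and *Msr1* counts, none of which uses a ligand gene. From the lowest to the highest bin, *Wnt2* had 138, 307, 408, 524, 599, 733 and 867 CPM, higher at every step with no overlap between the intervals of neighbours. *Wnt9b* had 2.88, 4.51, 10.4, 11.5, 26.4, 47.1 and 91.3 CPM over the same bins. *Rspo3* had 67.3, 78.3, 83.3, 251, 336, 519 and 959 CPM. All 3 ended highest in the bin of 4 or more, and the *Rspo3* levels of the first 3 bins lay close together.

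*Dll4* ran the opposite way over these bins, with 205, 134, 102, 79.0, 71.2, 59.0 and 44.0 CPM, with overlapping intervals between neighbours from the third to the sixth bin. *Hgf* had 269 CPM in the lowest and 138 CPM in the highest bin. *Bmp6* stayed between 246 and 256 CPM in the first 5 bins and had 200 and 172 CPM in the last 2, while *Bmp2* lay between 1106 and 1368 CPM throughout. *Jag1* was high at both ends, with 25.9 CPM in the lowest bin, 3.98 to 9.83 CPM in the 5 between and 14.1 CPM in the highest. The median depth of the bins was lowest at a difference of 0 (5713 UMIs) and highest in the last bin (9240.5 UMIs).

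**Figure D2:**
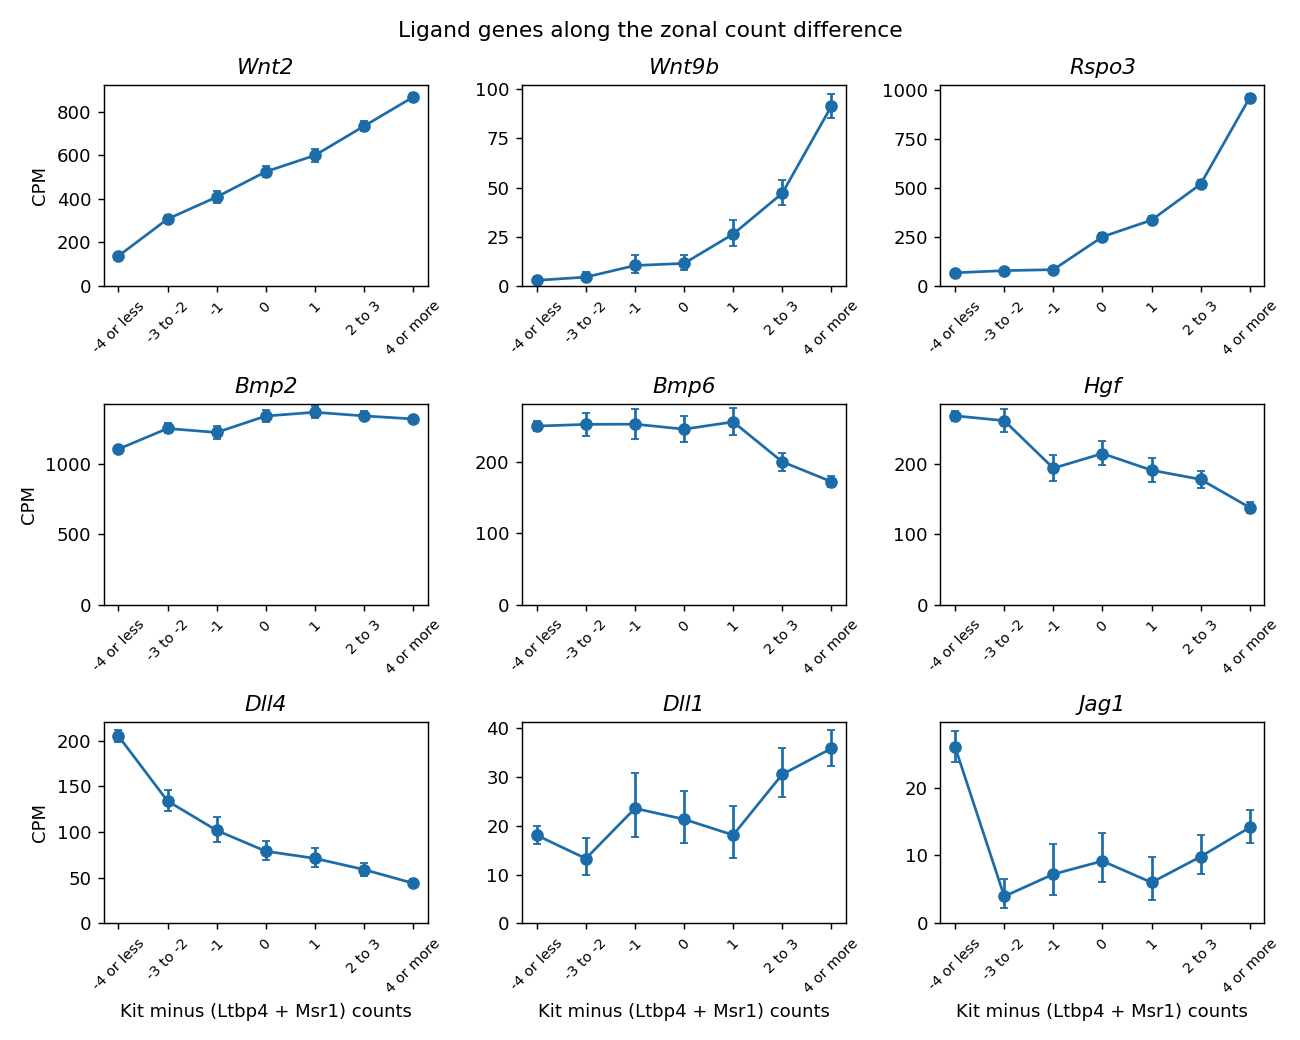
CPM of each ligand gene in endothelial cells of the tdTomato+ library, binned by *Kit* counts minus the sum of *Ltbp4* and *Msr1* counts, from periportal (left) to pericentral (right). Points are CPM of summed counts, bars exact 95% counting intervals, and each panel has its own axis from 0. *Wnt2*, *Wnt9b* and *Rspo3* end highest on the right, *Dll4* is highest on the left (205 CPM), and *Jag1* is high at both ends (25.9 and 14.1 CPM).

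*Rspo3* was concentrated in a small set of cells that also carried genes of larger vessels. In the 423 endothelial cells with at least 10 *Rspo3* counts, of which 95.7% were pericentral-type, *Selp* (P-selectin, an adhesion molecule of venous endothelium) had 512 CPM and *Vwf* (von Willebrand factor) 98.6 CPM, against 6.89 and 6.59 CPM in cells without *Rspo3*. *Edn1* (endothelin) had 93.1 CPM and 6.06 CPM in the same order. Of 7 large vessel markers, 5 exceeded 10 CPM in the cells rich in *Rspo3*, with a summed level of 1477 CPM and 1 at 0, against 2 of 7 and 397 CPM in cells without it. The sinusoidal gene *Stab2*, used by the gate, had 2372 CPM in the rich cells and 3940 CPM in cells without *Rspo3*. The 12 sinusoidal tracers all exceeded 10 CPM in both groups and summed to 26357 and 31002.5 CPM. Of the cells without *Rspo3*, 56.3% were periportal-type. Their median depth was 7237 UMIs, against 9507 UMIs in the cells rich in *Rspo3*, and both groups were set by unthinned counts. In the 1837 pericentral-type cells without *Rspo3*, *Selp* had 13.0, *Vwf* 1.57 and *Stab2* 4748 CPM.

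The zones were then divided by a count of *Selp* or *Vwf*, a split chosen after these values were seen. Unthinned counts set it, and cells with such a count were deeper. Median depths with and without it were 9039 and 7742 UMIs in pericentral-type and 8418 and 7129 UMIs in periportal-type cells. *Rspo3* had 2003 CPM in the 526 pericentral-type cells with such a count and 234 CPM in the 2313 without. Among periportal-type cells, 123 with *Selp* or *Vwf* held 820 of the 908 *Rspo3* counts (673 CPM), and the other 2625 held 88 (4.46 CPM). *Wnt9b* had 117 and 38.4 CPM in pericentral-type cells with and without such a count. *Wnt2*, with the zones set by *Kit* alone, had 961 CPM in 438 pericentral-type cells with *Selp* or *Vwf* and 736 CPM in 1632 without, and 284 and 179 CPM in periportal-type cells with and without them. *Jag1* was highest in the 123 periportal-type cells with *Selp* or *Vwf* (108 CPM, against 19.7 CPM in those without), and it had 21.5 and 7.16 CPM in pericentral-type cells with and without them. *Gja5*, an arterial connexin, had 34.5 CPM (42 counts) in those 123 cells and under 1 CPM in each of the other 3 groups. Only 26 of all endothelial cells carried *Gja5*, and 10 cells held 74.6% of its counts.

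**Figure D3:**
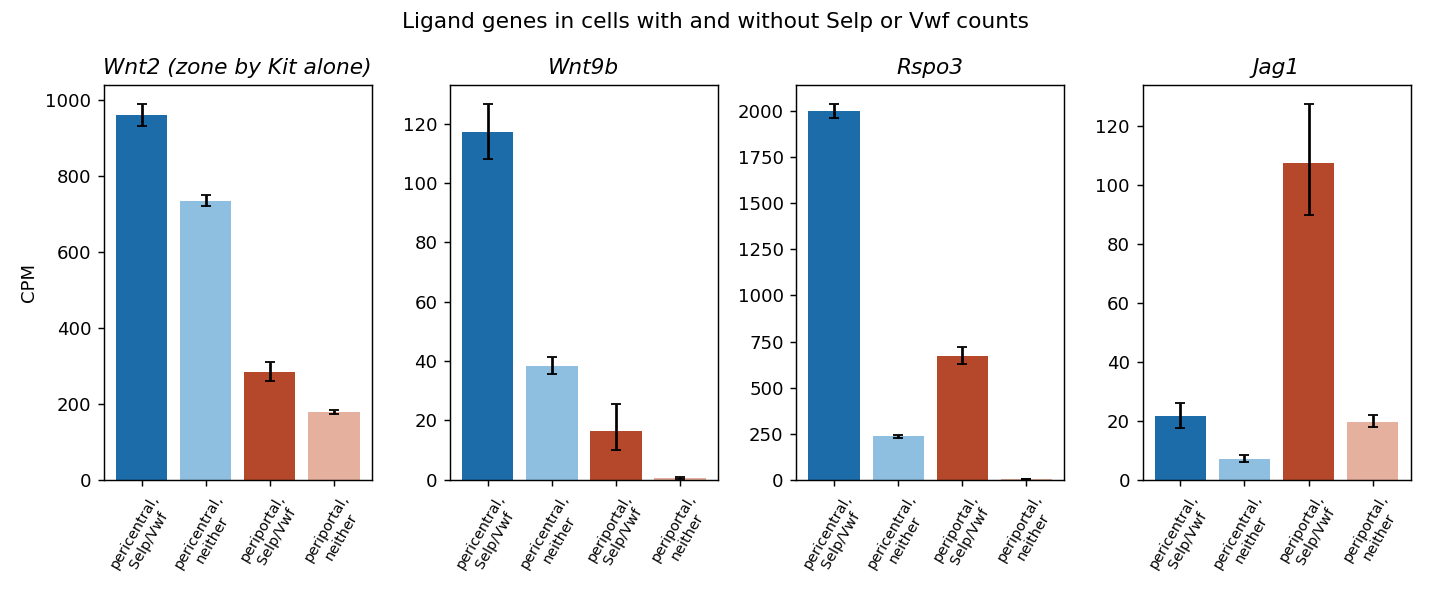
CPM of *Wnt2*, *Wnt9b*, *Rspo3* and *Jag1* in endothelial cells of the tdTomato+ library, divided by zone and by a count of *Selp* or *Vwf*, with the zones of the *Wnt2* panel set by *Kit* alone. Bars are CPM of summed counts with exact 95% counting intervals. *Rspo3* is highest in pericentral-type cells with *Selp* or *Vwf* (2003 CPM) and *Jag1* in periportal-type cells with them (108 CPM).

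Genes of other tissue cells were also present in a few of these cells. Of the 5851 endothelial cells, 109 (1.86%) carried a count of the cholangiocyte genes *Spp1*, *Krt19* or *Epcam* or of the fibroblast genes *Dcn* or *Col3a1*, and they held 9.33% of the *Jag1* and 2.43% of the *Rspo3* counts. *Jag1* is also a known bile duct gene. Of the 489 cells with *Jag1*, 14 carried *Spp1*. The 13 cells with at least 10 *Spp1* counts all had *Jag1*, and they held 58 of its 772 counts. The 6 cholangiocyte markers summed to 1555 CPM in periportal-type cells with *Jag1*, of which *Spp1* gave 1323 CPM, against 31.6 CPM in those without *Jag1*. In pericentral-type cells they summed to 2169 CPM with *Jag1*, of which *Spp1* gave 1921 CPM, and to 9.84 CPM without it. The 8 hepatocyte markers were higher with *Jag1* too. They summed to 587 CPM with and 24.3 CPM without it in pericentral-type cells, and to 432 and 58.2 CPM in periportal-type cells. The source of this RNA was not tested. Of all *Spp1* counts, 10 cells held 95%. Without the 109 cells, *Jag1* had 15.7 CPM and a zonal log2 ratio of -1.42, and *Rspo3* had 346 CPM and 3.79.

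Stellate cells are a known source of *Hgf*. The 10 stellate and mesenchymal markers summed to 188 CPM in cells with at least 5 *Hgf* counts, against 241 CPM in cells with 0 *Hgf* counts, and 3 of 10 exceeded 10 CPM in each. They summed to 243 CPM in cells with at least 10 *Rspo3* counts (2 of 10 above 10 CPM, 4 at 0), against 207 CPM in cells without *Rspo3* (3 of 10 above 10 CPM). *Dcn* and *Col3a1* ran against that sum, with 26.6 and 6.01 CPM in the cells rich in *Rspo3*. In cells without *Rspo3* they had 64.1 and 32.3 CPM. *Reln* had 1.15 CPM in the rich cells and 0.69 CPM in cells without *Rspo3*. In all endothelial cells *Ecm1* alone gave 112 of the 215 CPM of this list. The part of stellate and mesenchymal RNA in the levels of *Hgf* and *Rspo3* was not tested.

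Co-detection was read in the 5410 thinned cells, as the share of cells with both genes over the product of their single shares. *Wnt9b* and *Rspo3* were found together in 232 cells (4.29%, against a product of 0.929%), a quotient of 4.62. *Wnt2* was present in 94.8% of the cells with *Wnt9b* and in 87.8% of those with *Rspo3* (quotients 1.77 and 1.64). All 3 were found in 220 cells (4.07%). Within pericentral-type cells the quotient of *Wnt9b* and *Rspo3* was 2.43.

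*Dll4* met the pericentral ligands less often than the product of the shares. It was found with *Wnt9b* in 19 cells (quotient 0.205), *Rspo3* in 74 (0.313) and *Wnt2* in 514 (0.624). Within pericentral-type cells these 3 quotients were 0.359, 0.546 and 0.943. Within periportal-type cells they were 0.998 (3 cells), 0.674 and 0.777. *Wnt2* took part in setting these classes. *Dll4* and *Jag1* met in 86 cells (1.48), with quotients of 0.511 within pericentral-type (4 cells) and 1.28 within periportal-type cells. *Jag1* was found with *Wnt9b* in 22 cells (1.79), with *Rspo3* in 47 (1.49) and with *Wnt2* in 58 (0.530). Within pericentral-type cells 38 of 56 cells with *Jag1* also had *Rspo3* (67.9%, quotient 2.3). *Bmp2*, found in nearly all cells, gave quotients of 0.861 to 1.02 with every other gene. These are descriptions of cells that share 1 library.

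**Figure D4:**
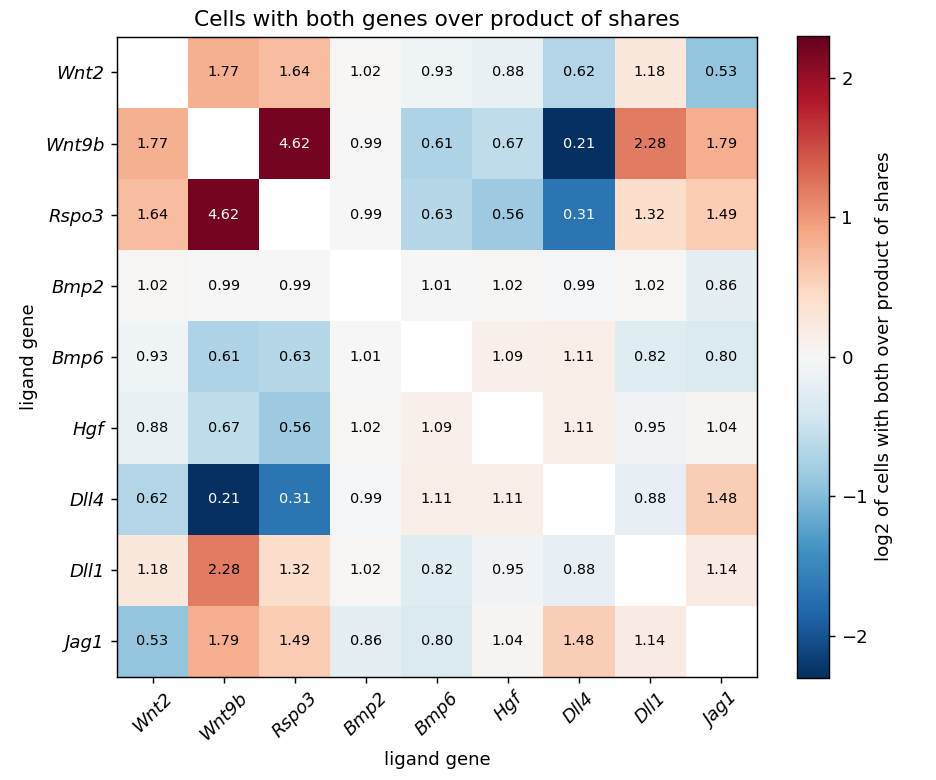
Quotient of the share of thinned endothelial cells with both genes over the product of their single shares, for the 36 pairs of ligand genes in the tdTomato+ library. Color gives the log2 of the quotient, and each field prints the quotient. *Wnt9b* with *Rspo3* has the highest quotient (4.62) and *Wnt9b* with *Dll4* the lowest (0.205).

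Kupffer and T cells served as contrast within the tdTomato+ library. Kupffer cells (123 cells, median 5907 UMIs) had *Clec4f* and *Vsig4* and no *Cd3e*, *Stab2* or *Kdr*, and T cells (2078 cells, median 8197 UMIs) had *Cd3e* and *Ptprc* without *Stab2*, *Kdr*, *Cd79a* or *C1qa*. All 9 ligand genes were at least 2-fold higher in endothelial cells than in either class. At that size 24.3% of 10361 genes were higher in endothelial than in Kupffer cells, and 31.5% of 10299 genes were higher than in T cells. The median log2 ratio of all genes was 0.17 against Kupffer and 0.31 against T cells, far below those of the 9.

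*Wnt2* was 72.5-fold higher in endothelial than in Kupffer cells (interval 33.3 to 198) and 274-fold higher than in T cells (194 to 401). *Wnt9b* had 0 counts in both and was at least 9.70-fold and at least 196-fold higher, taken against 3 counts over the class. *Rspo3* was 295-fold higher than in T cells (197 to 466), and against 2 counts in Kupffer cells the ratio was 168 (46.6 to 1390). *Bmp2* was 151-fold higher than in Kupffer cells (76.8 to 351) and 306-fold higher than in T cells (245 to 385). *Bmp6* was 32.2-fold and *Hgf* 8.29-fold higher than in Kupffer cells, and 239-fold and 242-fold higher than in T cells.

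For the Notch ligands the Kupffer cells gave few counts. *Dll4* and *Dll1* had 1 count each there, for ratios of 126 (22.6 to 4971) and 23.1 (4.13 to 912), and *Jag1* had 0, at least 5.50-fold lower than in endothelial cells. Against T cells, *Dll4* was 212-fold, *Dll1* 116-fold and *Jag1* 13.9-fold higher in endothelial cells.

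Endothelial RNA in droplets of other classes was gauged by 12 sinusoidal genes, each as a percentage of its own endothelial level. The median over the 12 was 0.483% in Kupffer and 0.499% in T cells. The planned gauge was the summed level of the 12, which gave 1.38% in Kupffer and 0.727% in T cells. The median was chosen after the values were seen, because single genes led the summed level. *Cdh5* gave 301 of 420 CPM in tdTomato+ and 301 of 320 CPM in control Kupffer cells, and *Ehd3* gave 88.1 of 221 CPM in tdTomato+ T cells.

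In T cells, the level that this median would give was 6.12 CPM for *Bmp2*, 1.70 CPM for *Rspo3* and 0.64 CPM for *Dll4*. The measured levels were 4.01, 1.15 and 0.60 CPM. The intervals of *Rspo3* (23 counts) and *Dll4* (12 counts) held the level from the median, and that of *Bmp2* (80 counts) lay below it. *Dll1* had 0.20 CPM on 4 counts, against 0.12 CPM from the median. *Jag1* in T cells had 1.20 CPM (0.77 to 1.79), against 0.08 CPM from the median. In Kupffer cells, *Rspo3* (2.03 CPM), *Bmp2* (8.10 CPM) and *Dll4* (1.01 CPM) had intervals that held the level from the median. *Hgf* in Kupffer cells was above it, with 26.3 CPM (17.2 to 38.6) against 1.05 CPM, and 12 counts in 39 control Kupffer cells gave 56.5 CPM (29.2 to 98.6). *Bmp6* (7.09 CPM, 2.85 to 14.6, against 1.10 CPM) and *Wnt2* (6.08 CPM, 2.23 to 13.2, against 2.13 CPM) were also above it in Kupffer cells, on 7 and 6 counts. With the planned summed level (1.38%), the intervals of *Bmp6* and *Wnt2* held the expected level, so their place above it depends on the gauge. The origin of these counts was not tested.

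Within the tdTomato+ library, *Hgf* was the 1 ligand gene with a higher level in another class than in endothelial cells. Basophils, marked by *Mcpt8* and *Cd200r3*, had 551 CPM in the tdTomato+ library (115 counts in 25 cells, interval 455 to 662) and 562 CPM in the control library (16 counts in 4 cells, 321 to 913). Endothelial cells followed with 218 CPM. Kupffer cells (26.3 CPM), nonclassical monocytes (24.6 CPM, 10.6 to 48.5) and neutrophils (21.8 CPM, 10.5 to 40.1) had overlapping intervals. Classical monocytes had 8.25 CPM (4.51 to 13.8) and T cells 0.90 CPM.

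*Dll4* and *Dll1* were also read in plasmacytoid dendritic cells. *Dll4* had 12.9 CPM in 31 tdTomato+ and 14.9 CPM in 74 control cells of this class, and *Dll1* had 10.4 and 8.0 CPM. The tracer median would give 0.15 CPM of *Dll4* in the tdTomato+ cells. In the control library, 18 nonclassical monocytes held 6 *Jag1* counts (30.7 CPM), against 1 count in 29 tdTomato+ cells (3.08 CPM). Cells of the NK gate had 15.4 CPM of *Dll1* (19 counts in 118 cells) and 8.10 CPM of *Jag1* (10 counts) in the tdTomato+ library, and 0 counts of both in 39 control cells, where 3 counts would make 10.1 CPM.

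**Figure D5:**
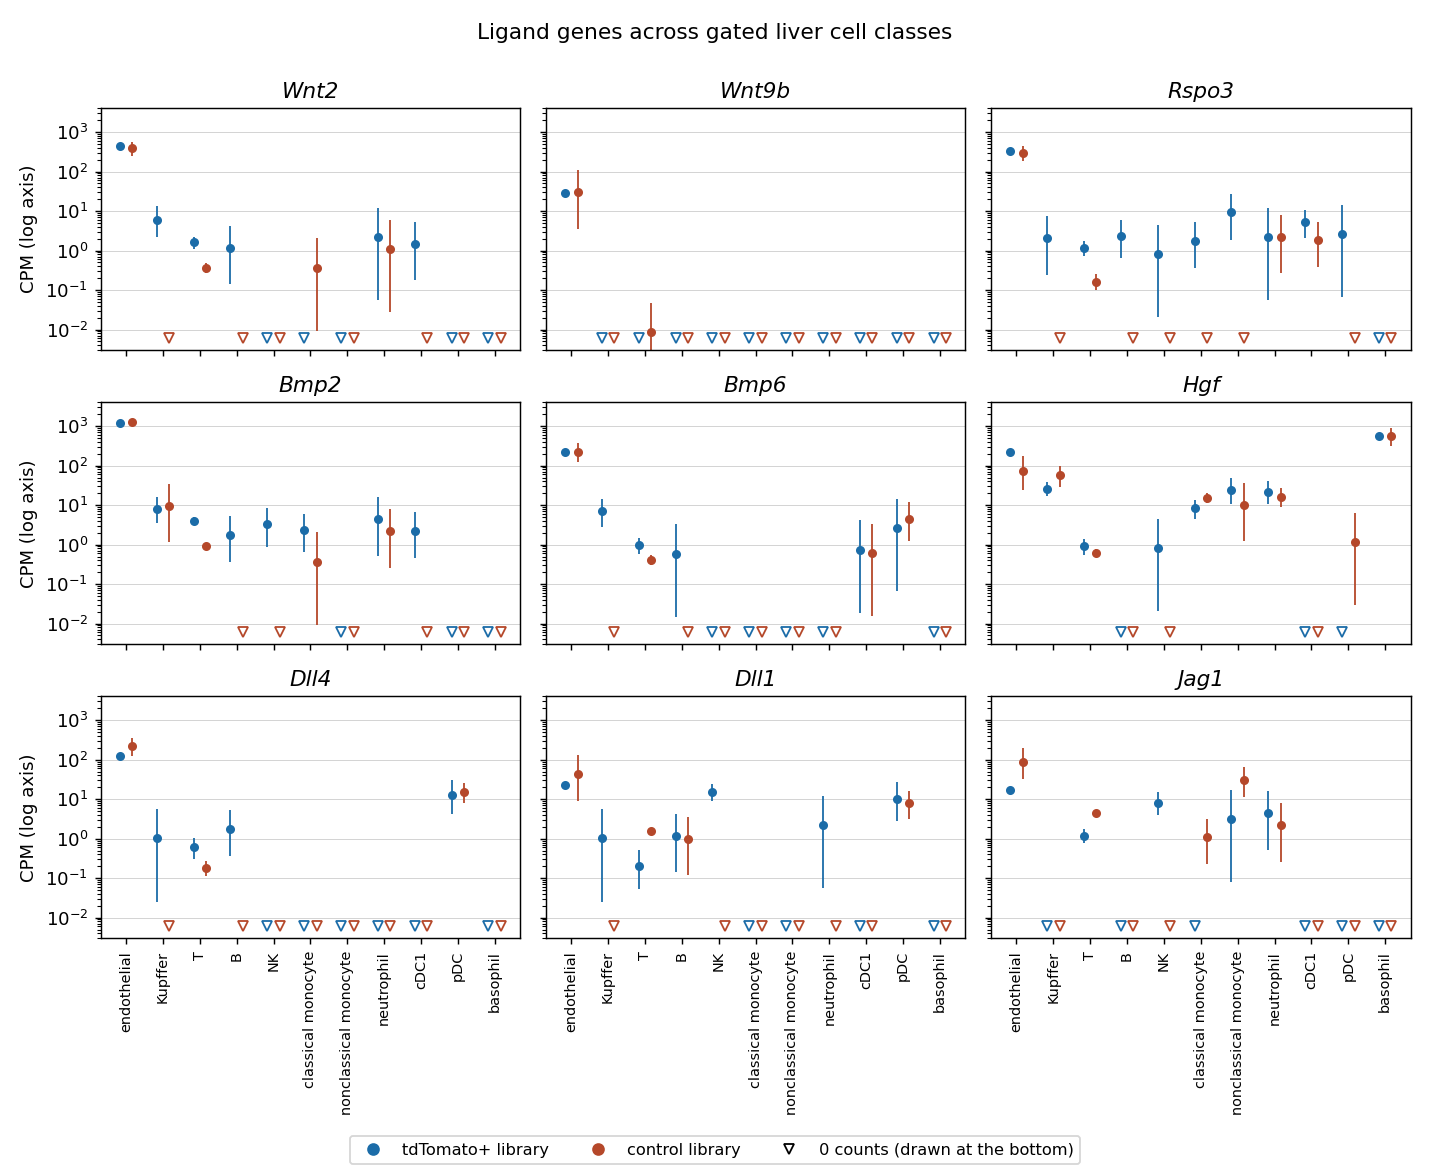
CPM of each ligand gene (log axis) in 11 gated liver cell classes, with tdTomato+ left of control in each class. Points are CPM of summed counts, lines exact 95% counting intervals cut at the axis, and open triangles mark 0 counts. Endothelial cells lie above the other classes of their own library in all panels except that of *Hgf*, where basophils have 551 and 562 CPM.

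Genes of the same pathways were read in endothelial cells from 13 lists. Of 19 Wnt ligand genes, only *Wnt2* and *Wnt9b* reached 10 CPM and 7 had 0 counts. Of 4 R-spondins only *Rspo3* did. *Rspo1* had 9.15 CPM and was lower in pericentral-type cells (log2 ratio -1.33). Of 20 genes of Wnt secretion and reception, 7 reached 10 CPM and all 7 were within 2-fold by zone, among them *Wls*, which carries Wnt proteins to the surface (217 CPM), and the receptors *Fzd4* (120 CPM), *Lrp5* (134 CPM) and *Lrp6* (187 CPM). Of 13 Wnt inhibitors, *Dkk3* was higher in pericentral-type cells (log2 ratio 1.76) and *Kremen1* was within 2-fold, the others being under 10 CPM. Of 7 Wnt target genes, *Nkd1* (51.3 CPM, log2 ratio 0.56) and *Sox17* (116 CPM, log2 ratio -0.34) reached 10 CPM, and *Axin2* had 1.82 CPM.

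Of 12 BMP ligand genes, *Bmp2* and *Bmp6* alone reached 10 CPM. Of 10 receptor genes 6 did, all within 2-fold by zone, including *Bmpr2* (453 CPM) and the coreceptor *Eng* (2198 CPM). Of 4 measured BMP inhibitors *Bmper* was lower in pericentral-type cells (log2 ratio -1.30), and *Smad6* and *Smad7*, feedback inhibitors, had log2 ratios of -0.50 and -0.39. All 6 measured BMP targets were within 2-fold, for example *Id1* (149 CPM, log2 ratio -0.46) and *Id3* (1459 CPM, log2 ratio 0.07).

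The 3 of 7 Notch targets with at least 10 CPM were all lower in pericentral-type cells, beside 1.38% of all genes: *Hes1* (log2 ratio -1.19), *Nrarp* (-1.05) and *Efnb2* (-2.21), the last of which is also among the periportal genes named above. Of 8 measured Notch receptors and enzymes, *Lfng*, a glycosyltransferase that modifies Notch, was higher in pericentral-type cells (log2 ratio 1.87) and 7 were within 2-fold, *Notch1* (-0.24) and *Notch4* (-0.21) among them. Beside *Hgf*, the HGF list of 11 held *Plau*, a protease (log2 ratio 1.79), and *Spint2* (-0.12). The receptor *Met* had 1.99 CPM.

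The genes whose levels were most like each ligand were sought by Pearson's r of log2(CPM + 1) over 16 points, the 7 endothelial bins and 9 other classes of at least 50 cells, among 12403 genes. The 9 classes include the mixed T and endothelial and the mixed Kupffer and endothelial droplets, where the tracer medians were 45.3% and 32.3%. Basophils (25 cells) were too few to enter. These points share 1 library, several of them carry endothelial RNA, and r is a description. *Wnt2* was closest to *Alox12* (0.992), *Ddah2* and *B3gnt3* (both 0.99), *Wnt9b* to *Tafa2* (0.985), *Plppr5* (0.981) and *Lhx6* (0.976), and *Rspo3* to *Lmcd1* (0.99), *Zfp423* (0.988) and *Plppr5* (0.983). *Bmp2* was closest to *Ushbp1*, *Pla2r1* and *Eng* (all 0.998) and *Bmp6* to *Zcchc14* (0.997), *Folr1* and *Mb21d2* (both 0.996). *Hgf* was closest to *Mbd6* (0.984), *Cracr2b* (0.983) and *Calml4* (0.979). *Dll4* was closest to *Flrt1*, *Zfp521* (both 0.991) and the gene listed by its ID ENSMUSG00000121382 (0.99). *Dll1* reached 0.945 with *Zfp462*, *Hoxa3* and *Ccdc80*, and *Jag1* 0.916 with *Lysmd3* and *9930012K11Rik* and 0.913 with *Camk2n1*.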

How the data were processed

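Liver cells of 2 sorts, tdTomato+ and control, were read as 1 gene expression library each. The authors deposited unnormalized UMI counts for each gene and barcode, made with Cell Ranger (version 10.0.0 in the file header, with mm10 named in the submitters' notes), for 33696 genes, of which 31961 IDs are in GENCODE M21. The γδ receptor contig files were not used here. CPM, percentages and log2 ratios were computed here from these deposited counts in Python (version 3.11.15) with the packages scipy 1.17.1, numpy 2.4.6, matplotlib 3.10.9 and pandas 2.3.3.

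Cells with at least 300 genes and at most 10% mitochondrial counts were assigned to 17 classes by fixed counts of marker genes. A cell can therefore fall outside every class or meet more than 1 gate. The latter held for 107 tdTomato+ and 161 control cells, which were left out of every class except the endothelial one. Counts were summed per class. Intervals were exact at 95% (Poisson for CPM, Clopper-Pearson for shares, conditional binomial for ratios), and the ratio intervals were tested on simulated data. A gene was called apart with at least 10 CPM in 1 class and a 2-fold ratio, a rule of size and not a test. A count of 0 was set to 3 counts for the bound of a ratio or share. Cells were thinned to 3000 UMIs with seed 1.

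The 9 genes and all lists were chosen with earlier results of these data known. Named genes were the 9 members, members of the pathway lists with at least 10 CPM or 2-fold apart by zone, and the 3 genes most like each member. The zone markers, the genes of larger vessels, cholangiocytes and fibroblasts and a few list members under 10 CPM were also named, the last chosen after their values were seen. Levels, zonal and class ratios, thinned shares and gene counts were recomputed under those of 16 alternatives that bear on each, and 7 alternatives were added after the data were seen. Bins, co-detection, pathway lists and likeness were not recomputed.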

Additional observations from a re-analysis of the deposited data

How the results depend on the processing

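No result changed direction under any alternative tried. Each sort is 1 library, so no replicate could be left out. No paired analysis was possible because there is 1 library per sort. The counts of genes at least 2-fold apart moved with the level asked for. Between the zones they were 132 higher and 129 lower as reported, 1211 and 1877 without a level limit beyond 3 counts, and 63 and 53 at 50 CPM. Between endothelial and Kupffer cells 2517 were higher and 1724 lower as reported, 8883 and 3513 without the limit, and 1333 and 954 at 50 CPM. Between endothelial and T cells 3245 were higher and 1762 lower as reported, 8527 and 4442 without the limit, 1804 and 961 at 50 CPM, and 1885 higher where T cells could carry *Stab2* or *Kdr*. With that T gate, which takes in the mixed droplets, *Wnt2* was at a log2 ratio of 1.79 instead of 8.10 and *Jag1* at 1.39 instead of 3.79.

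Of 108 zonal ratios 91 stayed within the counting interval. The ratio of *Rspo3* ran from 3.40 to 4.88, that of *Wnt9b* from 4.2 to 6.04, that of *Dll4* from -1.97 to -1.78 and that of *Jag1* from -1.60 to -0.85. Cells of 5000 to 10000 UMIs, a range added later and not counted in these, gave 5.92 for *Rspo3*, 6.21 for *Wnt9b*, -1.91 for *Dll4* and -1.77 for *Jag1*. Bins, co-detection, pathway lists and likeness were not recomputed. With 5% of the cells richest in UMIs left out, the *Rspo3* ratio was 4.88. The share of cells with a UMI depends on depth: at 2000 and 5000 UMIs *Wnt2* was found in 45% and 64.2% of endothelial cells and *Jag1* in 2.87% and 5.99%. The 123 Kupffer cells limit ratios against them.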

Other observations

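*Jag1* was also read within T cells, split after its level in the class was seen into γδ-type cells (at least 2 *Trdc* and 0 *Trac* counts) and αβ-type cells (at least 2 *Trac* and 0 *Trdc* counts). γδ-type T cells had 7.45 CPM of *Jag1* in the tdTomato+ library (6 counts in 89 cells, interval 2.73 to 16.2) and 7.78 CPM in the control library (232 counts in 3522 cells, 6.81 to 8.85). αβ-type T cells had 0.66 CPM in the tdTomato+ library (7 counts in 929 cells) and 0.33 CPM in the control library (7 counts in 1830 cells). The whole T class had 1.20 CPM of *Jag1* in the tdTomato+ and 4.58 CPM in the control library (538 counts).

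*Dll1* had 3.45 CPM in control γδ-type T cells (103 counts, interval 2.82 to 4.19) and 0.29 CPM in control αβ-type T cells (6 counts). In tdTomato+ γδ-type T cells it had 0 counts, where 3 counts would make 3.72 CPM.

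The 3358 tdTomato+ droplets with T cell and endothelial genes held a median of 17130 UMIs, and the 12 sinusoidal tracers had a median of 45.3% of their endothelial levels there. *Wnt2* had 183 CPM in them, against 199.6 CPM from that median, *Bmp2* 597 against 556 CPM, *Dll4* 61.3 against 57.8 CPM and *Jag1* 7.35 against 7.57 CPM. *Rspo3* had 116 CPM, against 155 CPM from the median.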
